A study of Homo sapiens with 12 samples.

Results

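The comparison set U87 cells with acquired resistance to JQ1 against parental U87 cells while both lines were in 1000 nM JQ1 for 24 h. U87-MG is an established human glioblastoma line, grown in serum-containing medium per the labels. The members were the 2 libraries titled as resistant cells in JQ1 and the 2 titled as parental cells in JQ1, 4 of the 12 polyA RNA libraries of the series, and the comparison ran over 19093 tested genes. The other libraries, 2 each, were resistant and parental cells with 1000 nM dBET6 for 24 h and resistant and parental cells with DMSO, the solvent, for 24 h. How the resistant line was selected, whether it is a single clone and whether it was kept in JQ1 between experiments are points the labels leave out. No source states that the replicates were separate cultures, so every p-value measures only the spread between these libraries, which may be technical.

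JQ1 blocks the bromodomains of the BET proteins, readers of acetylated chromatin that bring the elongation machinery to promoters and enhancers. Cells exposed to it lose transcripts that depend most on these readers, often including MYC, and gain HEXIM1, the inhibitor of the elongation kinase P-TEFb. Resistant cancer cells can keep growing under such inhibitors, and kinase and WNT signalling have been described as routes in other tumour types. With the drug present in both arms, the comparison asks how the lines differ under the same exposure, and the DMSO libraries show which of these differences were there without it.

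The 4 libraries in JQ1 held 33710124 and 35512170 estimated counts for resistant cells and 36602910 and 31346557 for parental cells. The libraries of a group correlated at 0.997 for resistant cells in JQ1 and 0.996 for parental cells in JQ1 (Pearson, log2 CPM across genes, which are not independent replicates), and differed by more than counting alone would give (chi-square over its degrees of freedom, 7.35 and 10.2). The summed level of 10 glial or astrocytic markers was 5789 to 6093 TPM in resistant cells and 6008 to 6030 TPM in parental cells. Nearly all of that was VIM and CD44, while AQP4, ALDH1L1 and SLC1A2, which define astrocytes, were below 0.5 TPM in every JQ1 library. Of the microglial and macrophage markers, 6 of 8 were below 0.5 TPM in every JQ1 library, PTPRC and CD14 among them, as were all 5 endothelial and all 6 lymphocyte markers. The other microglial and macrophage markers were CD68 and CSF1R. CD68 had 312 and 289 TPM in resistant cells and 318 and 329 TPM in parental cells in JQ1. CSF1R had 3.29 and 3.60 TPM in resistant cells and 1.17 and 1.14 TPM in parental cells.

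Of the 19093 genes, 3209 were higher (16.8%) and 3636 lower (19%) in resistant than in parental cells in JQ1, 35.9% in all, at an adjusted p below 0.05 by edgeR's quasi-likelihood test. The differences reached at least 2-fold for 819 higher (4.29%) and 1236 lower genes (6.47%), at least 4-fold for 235 higher and 524 lower, and at least 16-fold for 37 higher and 179 lower. The tail of large differences was therefore longer on the lower side. Protein-coding genes made up 2764 of the higher and 3238 of the lower genes, and 139 lincRNA genes lay on each side. Of the tested protein-coding genes 41.5% were called, and of the lincRNA genes 19.8%. Of the 40 gene lists described below, 36 had a larger share called than the 35.9% of all genes. A share above 35.9% therefore does not by itself set a list apart. The values of the lines did not overlap for 12750 genes (66.8%). With 2 libraries per line, values can separate often without a difference between the lines, so this share does not count genes that differ. In RNA from whole cultures, fewer cells in a state and less RNA per cell cannot be told apart.

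The split between higher and lower depended on what was held constant. Transcripts of the 13 mitochondrially encoded mRNAs took 2.70% and 2.35% of counts in resistant cells and 2.03% and 1.55% in parental cells, both in JQ1. Scaling to these mRNAs lowered the median log2 fold change of all genes to -0.50, against 0.01 by TMM, and gave 546 higher and 7609 lower genes. Whether the lines differed in total mRNA was not tested. A log2 fold change above 0 but below about 0.5 can change sign under that scaling.

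Among protein-coding genes that averaged 10 CPM or more, those with the largest excess in resistant cells included secreted factors, a channel and genes of the ERK kinase pathway. IGFBP1, which binds insulin-like growth factors, had 21.2 and 22.5 CPM (counts scaled to a common library size with TMM) in resistant cells, against 2.32 and 2.04 CPM in parental cells. Its log2 fold change was 3.32 ± 0.15 (SE derived from the test statistic, n = 2 libraries each; adjusted p = 6.24e-16). LIF, a cytokine of the interleukin 6 family, had 52.1 and 52.8 CPM in resistant cells and 8.38 and 6.34 CPM in parental cells, a log2 fold change of 2.83 ± 0.12. HGF, the ligand of the receptor MET, had 27.9 and 24.0 CPM in resistant cells and 3.89 and 3.78 CPM in parental cells (log2 fold change 2.76 ± 0.11). For each of these secreted proteins both resistant libraries lay above both parental ones. NALCN, a sodium leak channel, stood at 20.8 and 21.1 CPM in resistant cells and 2.05 and 2.95 CPM in parental cells (log2 fold change 3.08 ± 0.16).

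CHI3L1, a secreted glycoprotein used as a marker of mesenchymal glioblastoma, had 1341 and 1335 CPM in resistant cells, against 266 and 239 CPM in parental cells, a log2 fold change of 2.40 ± 0.10. It was as far apart in DMSO, at 1224 CPM in resistant cells and 215 CPM in parental cells on average. LTBP1, which holds latent TGF-beta in the matrix, had a log2 fold change of 2.36 ± 0.10. The transcripts paired with LTBP1 gave only 0.677 of the deposited gene value, so its level is less certain than its error. RCN3, a calcium-binding protein of the endoplasmic reticulum, and CNDP1, a dipeptidase that splits carnosine, had log2 fold changes of 2.54 ± 0.11 and 2.48 ± 0.12.

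Several of the most negative log2 fold changes belonged to genes that were at or near silence in resistant cells. IL13RA2, a decoy receptor for interleukin 13 that many glioblastomas carry, had 2 counts in the 2 resistant JQ1 libraries together and 2481 in the 2 parental ones. The parental CPM was 1261 times the resistant one (95% interval of the counting error 349 to 10417). C4orf48, which encodes a small secreted peptide, had no count in resistant cells and 1262 in parental cells, at least 214-fold lower against a floor of 3 counts per library. IDUA, a lysosomal enzyme that breaks down glycosaminoglycans, had 3 counts in resistant cells and 2201 in parental cells, a ratio of 746 (255 to 3619). IDUA overlaps SLC26A1 on the other strand, and reads of such genes may be shared. PCDH7, a protocadherin, had 5 counts in resistant cells and 2138 in parental cells, a ratio of 435 (186 to 1340). OSBPL5, which encodes a lipid-binding protein, and PCDH10, another protocadherin, met the same rule of at most 3 counts in each resistant JQ1 library with at least 5 CPM in both parental ones, and no gene met it the other way round. C4orf48, IDUA, PCDH7 and PCDH10 lie on chromosome 4. IL13RA2, C4orf48, IDUA, PCDH7, OSBPL5 and PCDH10 were below 0.2 CPM in both resistant DMSO libraries and between 1.20 and 80.5 CPM in the parental ones.

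Other genes were reduced to a trace. UBE2K, a ubiquitin-conjugating enzyme encoded on chromosome 4, had 0.350 and 0.289 CPM in resistant cells, against 30.1 and 36.4 CPM in parental cells (log2 fold change -6.68 ± 0.18). IGFBP7, on the same chromosome, had a log2 fold change of -8.08 ± 0.50. TNFAIP2, a TNF-induced gene, had 0.323 and 0.499 CPM in resistant cells and 44.4 and 41.5 CPM in parental cells (log2 fold change -6.69 ± 0.17). TIMP3, an inhibitor of matrix metalloproteases, had 0.431 and 0.421 CPM in resistant cells and 29.1 and 30.2 CPM in parental cells (log2 fold change -6.11 ± 0.16). LDOC1, COL5A1 (a fibrillar collagen chain) and PTPRN (a secretory granule protein) followed with log2 fold changes of -5.85 ± 0.20, -4.18 ± 0.14 and -4.02 ± 0.12. For the genes below 1 CPM in resistant cells the ± value can be smaller than the counting error of their few reads. It overstates how precisely those fold changes are known.

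The promoters of 2 of these chromosome 4 genes are shown because they differ in the density of CG pairs, the sites of DNA methylation. They are the 250 bases before the annotated start on the plus strand, from RefSeq on GRCh38.p14 (PCDH7 at chr4:30720119-30720368, UBE2K at chr4:39697886-39698135), with each CG pair in capitals.
PCDH7: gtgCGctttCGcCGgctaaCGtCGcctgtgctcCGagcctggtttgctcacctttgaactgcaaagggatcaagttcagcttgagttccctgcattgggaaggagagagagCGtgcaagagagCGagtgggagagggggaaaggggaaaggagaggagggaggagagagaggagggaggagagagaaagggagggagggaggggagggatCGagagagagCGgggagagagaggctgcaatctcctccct
UBE2K: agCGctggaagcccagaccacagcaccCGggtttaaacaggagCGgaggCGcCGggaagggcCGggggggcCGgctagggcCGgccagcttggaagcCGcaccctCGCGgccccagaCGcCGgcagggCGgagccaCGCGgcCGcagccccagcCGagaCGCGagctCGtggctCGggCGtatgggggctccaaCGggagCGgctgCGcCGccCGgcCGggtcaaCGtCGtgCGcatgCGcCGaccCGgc
The PCDH7 window held 10 CG pairs, a number that 51.9% of 27305 promoter windows of this length reach, and the UBE2K window held 35, which 5.64% reach. CG reads the same on both strands. These counts describe the reference sequence, and DNA methylation was not analysed here.

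**Figure D1:**
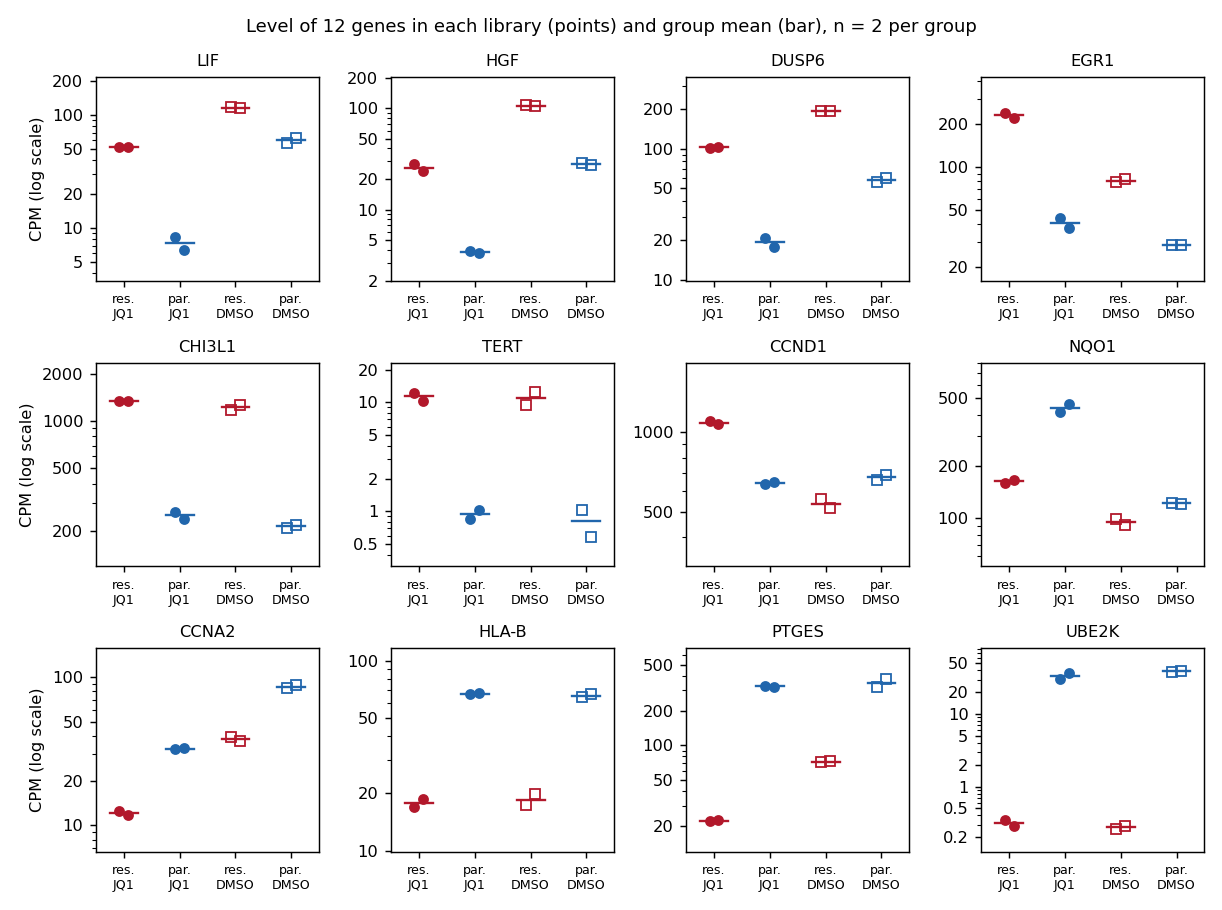
Level of 12 genes in CPM (log scale) in each library, resistant beside parental, in JQ1 (filled circles) and in DMSO (open squares), with the mean of each group as a bar. LIF stands at 52.1 and 52.8 CPM in resistant JQ1 libraries above 8.38 and 6.34 CPM in parental ones, and CCND1 is higher in resistant cells in JQ1 and lower in DMSO.

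Most of the difference between the lines in JQ1 was also called without the drug. The DMSO comparison shares no library with that in JQ1 and called 3314 genes higher (17.4%) and 4043 lower (21.2%). Of the 3209 genes higher in JQ1, 1883 were higher in DMSO too, which is 58.7% of the JQ1 list and 56.8% of the DMSO list. Of the 3636 lower genes, 2548 were lower in DMSO, 70.1% of the JQ1 list and 63.0% of the DMSO list, and 109 genes were called in opposite directions. In dBET6, a degrader of BET proteins built on a JQ1-like ligand, 44% of genes were called between the lines, 19.7% higher and 24.3% lower in resistant cells. There 1522 of the genes higher in JQ1 (47.4% of that list, 40.5% of the dBET6 list) and 1923 of the lower ones (52.9% and 41.4%) were called the same way, and 708 the opposite way. A core of 1108 higher and 1641 lower genes, 34.5% and 45.1% of the JQ1 lists, was called the same way in all 3 conditions.

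**Figure D2:**
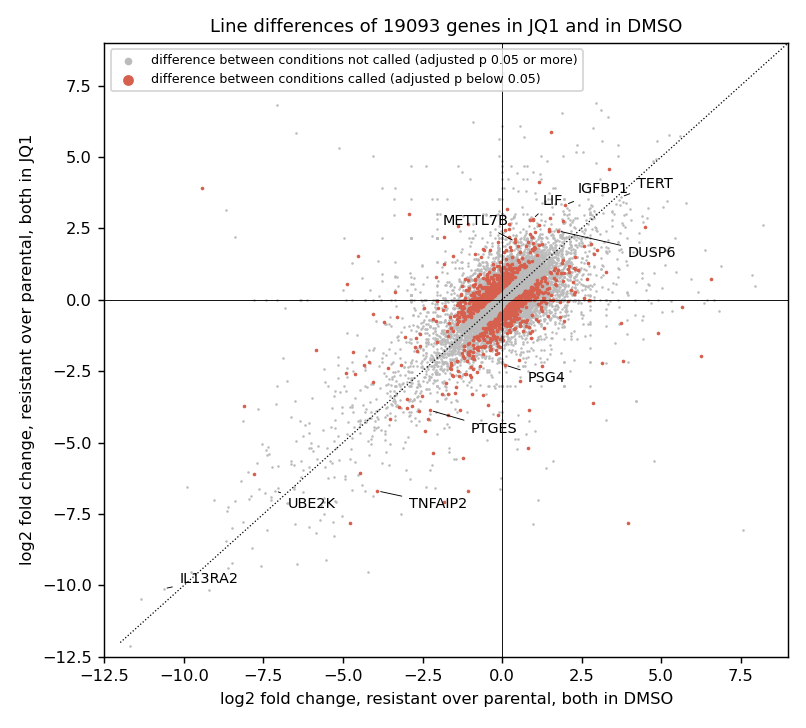
Log2 fold change of resistant over parental cells in JQ1 (vertical axis) against that in DMSO (horizontal axis), 1 point per gene, with the 1241 genes whose line difference changed between the conditions in red and equal differences along the dotted line. IL13RA2 and UBE2K lie near the dotted line at the low end, LIF and METTL7B above it, and TNFAIP2, PTGES and PSG4 below it.

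The interaction test asked which line differences changed with JQ1, and it called 6.50% of genes, 692 (3.62%) as more positive in JQ1 than in DMSO and 549 (2.88%) as more negative. The split turned with the scaling, to 514 and 801 with total counts and to 58 and 277 with mitochondrial mRNA scaling. These counts also depended on single libraries. The 692 became 430 without parental DMSO replicate 1, 369 and 313 without resistant DMSO replicates 1 and 2, and 426 and 310 without resistant JQ1 replicates 1 and 2. The 549 became 309 without parental DMSO replicate 1, 337 without parental JQ1 replicate 1, 276 and 235 without resistant DMSO replicates 1 and 2, and 288 and 300 without resistant JQ1 replicates 1 and 2. Of the 692 genes, 226 were higher in resistant cells in JQ1 with no call in DMSO, 83 were higher in both, 70 were higher in JQ1 and lower in DMSO, and 235 were lower in DMSO with no call in JQ1. Of the 549, 160 were lower in JQ1 with no call in DMSO, 130 were lower in both, and 151 were higher in DMSO with no call in JQ1.

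Among protein-coding genes that averaged 10 CPM or more, LIF had the largest positive change of the line difference, 1.86 ± 0.15 on the log2 scale (adjusted p = 1.71e-08, edgeR). In DMSO the cytokine averaged 116.8 CPM in resistant cells and 60.0 CPM in parental cells, so both lines had less of it in JQ1 and the gap between them was wider there. METTL7B, a membrane-bound methyltransferase, had 111.5 and 115 CPM in resistant cells and 28.2 and 27.2 CPM in parental cells in JQ1, against means of 46.8 CPM in resistant cells and 35.0 CPM in parental cells in DMSO, a change of 1.61 ± 0.13. SERPINB2, the plasminogen activator inhibitor 2, was higher in resistant cells in JQ1 (log2 fold change 0.70 ± 0.12; 0.17 and no call with mitochondrial mRNA scaling) and lower in DMSO (-0.85). The order of the lines also turned for MAFF, a small Maf transcription factor, which was at 0.34 ± 0.11 in JQ1 and -1.15 in DMSO. The MAFF call in JQ1 was lost without any 1 of 3 JQ1 libraries (0.25 without parental replicate 2, 0.35 and 0.32 without resistant replicates 1 and 2) and the sign turned with mitochondrial mRNA scaling (-0.16). EPHA2, an ephrin receptor, had a smaller deficit in resistant cells in JQ1 (-0.67 ± 0.13, not called on log2 TPM or log2 FPKM at -0.26 to -0.40) than in DMSO (-2.16).

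On the negative side, TNFAIP2 changed by -2.76 ± 0.26 and PTGES by -1.59 ± 0.12. PTGES, the terminal enzyme of prostaglandin E2 synthesis, had 22 and 22.4 CPM in resistant cells in JQ1, against 327 and 322 CPM in parental cells. In DMSO its means were 72.0 CPM in resistant cells and 348 CPM in parental cells, so the parental level was close in the 2 conditions and the resistant level was lower in JQ1. MCF2L, a guanine nucleotide exchange factor, had 77.5 and 69.8 CPM in resistant and 262 and 239 CPM in parental cells in JQ1, with no call in DMSO (log2 fold change -0.18, adjusted p = 0.211). RXRA, a nuclear receptor partner, and SLC12A8, a solute carrier, changed by -1.44 ± 0.16 and -1.43 ± 0.21. PSG4 changed by -2.38 ± 0.20, but it belongs to a family of near-identical genes between which reads are divided.

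Of 8 tested genes known to answer BET inhibitors, 4 were higher and 1 lower in resistant cells, at a median of 0.15 (-0.22 and none called higher with mitochondrial mRNA scaling). HEXIM1 had 207 and 201 CPM in resistant cells and 191 and 196 CPM in parental cells in JQ1, a log2 difference of 0.07 ± 0.09 that did not pass (adjusted p = 0.581). In DMSO its means were 49.0 CPM in resistant cells and 33.6 CPM in parental cells, and the line difference changed by -0.47 between DMSO and JQ1 (adjusted p = 0.0319), a call that ended without any 1 of 7 of the 8 libraries (-0.30 to -0.52). MYC, the growth-promoting transcription factor, had 114.7 and 115 CPM in resistant cells and 99.5 and 96.4 CPM in parental cells in JQ1. Its log2 fold change of 0.23 ± 0.08 passed narrowly (adjusted p = 0.0336), was not called without any 1 of the 4 JQ1 libraries or without either resistant DMSO library (0.21 to 0.25), and was -0.29 with mitochondrial mRNA scaling. In DMSO the line difference of MYC had the other sign (-0.35). SERPINI1, a serpin induced by BET inhibition, had 1.70 and 1.73 CPM in resistant cells and 5.76 and 6.22 CPM in parental cells, a log2 fold change of -1.80 ± 0.19. It was also lower in DMSO (-1.52), and its line difference was not called as changed (-0.28, adjusted p = 0.733, edgeR). On log2(TPM + 1) and log2(FPKM + 1) that change was called (-1.03 and -0.99). HIST2H2BE, a histone gene known to rise with BET inhibition, was higher in resistant cells (0.69 ± 0.08; 0.17 and no call with mitochondrial mRNA scaling). It was higher in DMSO as well (0.45), with no call for the change (0.25, adjusted p = 0.381, edgeR).

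The drug's targets and their elongation partners differed little. BRD2 had 292 and 296 CPM in resistant cells and 318 and 324 CPM in parental cells (log2 difference -0.12 ± 0.08, adjusted p = 0.251), and BRD3 had 41.2 and 41.5 CPM in resistant cells and 43.9 and 45.5 CPM in parental cells (-0.11 ± 0.09, adjusted p = 0.350). Both were below parental cells with a call when scaled to mitochondrial mRNA (-0.65 and -0.64). CRBN, the receptor that dBET6 recruits, was not called (0.08 ± 0.10, adjusted p = 0.589). Of 20 tested genes of the BET, P-TEFb and 7SK machinery, 5 were higher and 3 lower, with a median of 0.04 against 0.01 for all genes (-0.48 against -0.50, none higher and 9 lower, with mitochondrial mRNA scaling). SUPT5H, a subunit of the elongation factor DSIF, was higher (0.67 ± 0.09; 0.15 and no call with mitochondrial mRNA scaling), and CDK9, the kinase of P-TEFb, LARP7, which holds the 7SK RNA, and AFF1, a scaffold of the super elongation complex, were the lower ones (-0.50, -0.55 and -0.82). Where a list had few members called one way, those named were chosen after their values were seen.

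Genes that read out ERK kinase activity were higher in resistant cells. Growth factor receptors switch on ERK, which induces immediate early genes and the phosphatases and Sprouty proteins that restrain the pathway. Of 18 such genes tested, 10 were higher and 2 lower, with a median log2 fold change of 0.32. With mitochondrial mRNA scaling 4 were higher and 3 lower, at a median of -0.19, where the median of all genes was -0.50. EGR1, an immediate early transcription factor, had 238 and 221 CPM in resistant cells, against 44.5 and 37.8 CPM in parental cells (log2 fold change 2.48 ± 0.10, adjusted p = 1.56e-16). DUSP6, the phosphatase that inactivates ERK, had 101 and 104 CPM in resistant cells and 20.7 and 17.7 CPM in parental cells (2.41 ± 0.09). SPRY2, a Sprouty inhibitor, had 137 and 139 CPM in resistant cells and 37.9 and 36.8 CPM in parental cells (1.89 ± 0.09). FOSL1, an AP-1 subunit, was higher in JQ1 (0.52 ± 0.09; 0.01 and no call with mitochondrial mRNA scaling) and lower in DMSO (-0.69). The 2 lower members were DUSP1 (-0.39) and SPRY1 (-1.73), and SPRY1 lies on chromosome 4. In DMSO 7 of the 18 were higher and 4 lower with a median of 0.03, and the line difference was called more positive in JQ1 for 9 and more negative for 1. Protein phosphorylation was not analysed here.

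The EGR1 promoter is shown because that gene had the largest log2 fold change of the list. It is the window of 250 bases before the start on the plus strand (RefSeq, GRCh38.p14, chr5:138465229-138465478), with the CArG boxes, the motif bound by serum response factor, in capitals.
EGR1: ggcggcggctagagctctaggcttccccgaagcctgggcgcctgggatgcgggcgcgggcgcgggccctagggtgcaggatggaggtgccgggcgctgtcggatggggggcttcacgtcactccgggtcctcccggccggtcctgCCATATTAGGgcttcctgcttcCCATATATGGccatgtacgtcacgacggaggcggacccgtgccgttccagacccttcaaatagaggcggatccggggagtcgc
The window held 2 CArG boxes, and 9 of 27305 promoter windows of this length (0.0330%) held 2 or more, while 1.14% held at least 1. The motif reads the same on both strands, and the 2 copies do not overlap. The windows of DUSP6 and SPRY2 held none. A match describes letters in the reference sequence and not binding in these cells.

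Ligands of growth factor receptors moved apart from one another. Of 34 tested receptor tyrosine kinases and ligands, 11 were higher and 14 lower in resistant cells, with a median of -0.01. HGF was among the higher ones, at 105.8 CPM in resistant cells and 28.3 CPM in parental cells in DMSO, so both lines had less of it in JQ1. FGF2, a fibroblast growth factor encoded on chromosome 4, had 35.8 and 31.4 CPM in resistant cells and 70.5 and 81.6 CPM in parental cells (-1.18 ± 0.10). EPHB2, an ephrin receptor, had 2.67 and 2.73 CPM in resistant cells and 20.9 and 18.6 CPM in parental cells (-2.87 ± 0.14). EPHA4, of the same receptor family, had a log2 fold change of -4.56. GDNF, a ligand of the RET receptor that is not in the list, is encoded on the short arm of chromosome 5 and had 33.2 and 37.3 CPM in resistant cells and 7.96 and 7.64 CPM in parental cells (2.18 ± 0.11).

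With TMM scaling, genes of ribosome production and translation were modestly higher in resistant cells. Of 19 tested genes of the MYC program, which covers nucleolar and nucleotide synthesis factors, 12 were higher and 1 lower, with a median of 0.33. With mitochondrial mRNA scaling none was higher and 2 were lower, at a median of -0.21. RRP12, a ribosome export factor, had 137 and 145 CPM in resistant cells and 92.6 and 89.3 CPM in parental cells (0.63 ± 0.09). FBL, the methyltransferase of ribosomal RNA, and ODC1, the first enzyme of polyamine synthesis, were higher by 0.62 ± 0.08 and 0.62 ± 0.09. The calls for RRP12, FBL and ODC1 ended with mitochondrial mRNA scaling (0.12, 0.11 and 0.09). The lower member with TMM scaling was LDHA, lactate dehydrogenase (-0.55). The count of 12 became 7 without parental JQ1 replicate 1 and 6 without resistant JQ1 replicate 2. In DMSO 2 of the 19 were higher and 6 lower, with a median of -0.08, and the change between conditions was called positive for 9 and negative for none.

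Of 53 cytosolic ribosomal protein genes, 36 were higher and 2 lower in resistant cells, with a median of 0.33. With mitochondrial mRNA scaling 1 was higher and 6 were lower, at a median of -0.21. The 36 became 23 without parental JQ1 replicate 1 and 18 without resistant JQ1 replicate 2. In DMSO 14 were higher and 6 lower with a median of 0.04, and in dBET6 51 were higher and none lower with a median of 0.91. RPL37, encoded on the short arm of chromosome 5, had 916 and 1008 CPM in resistant cells and 374 and 476 CPM in parental cells (1.18 ± 0.10). RPS16 and RPL28, both on chromosome 19, were higher by 0.96 ± 0.09 and 0.81 ± 0.09, calls that ended with mitochondrial mRNA scaling (0.44 and 0.29). The lower members with TMM scaling, RPL9 and RPL34, lie on chromosome 4 (-0.35 and -0.43). With the members on chromosomes 4, 5, 13, 19, 21 and 22 left out, an alternative chosen after seeing the data, 24 of 38 were higher and none lower, at a median of 0.29.

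Mitotic genes were lower in resistant cells in JQ1. Of 48 genes of G2/M and mitosis, 33 were lower and 1 higher, with a median of -0.39. CCNA2, the cyclin of S phase and G2, had 12.4 and 11.7 CPM in resistant cells, against 32.7 and 33.0 CPM in parental cells (log2 fold change -1.44 ± 0.09). KIF20A, a kinesin of cytokinesis, and CDC20, an activator of the anaphase-promoting complex, were lower by -1.28 ± 0.09 and -1.0 ± 0.09. The higher member was ECT2 (0.26), a GTPase regulator of cytokinesis, whose call ended without any 1 of the 4 JQ1 or 2 resistant DMSO libraries, under each other scaling (-0.27 with mitochondrial mRNA) and with DESeq2. In DMSO 36 of the 48 were lower and none higher, with a median of -0.40, and the line difference changed for 2 members. CCNA2 lies on chromosome 4, and with members on the 6 chromosomes left out 24 of 39 were lower.

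Replication genes did not follow. Of 46 E2F targets and replication genes, 8 were higher and 9 lower in JQ1, 37.0% called against 35.9% of all genes, at a median of 0.03 (-0.49, none higher and 23 lower, with mitochondrial mRNA scaling). In DMSO 1 was higher and 22 lower, with a median of -0.21, and the line difference was called more positive in JQ1 for 6. The 8 higher genes became 5 without parental JQ1 replicate 1, 5 without resistant JQ1 replicate 1 and 3 without resistant JQ1 replicate 2. TYMS and TK1, enzymes of thymidine nucleotide supply, were lower (-0.67 ± 0.08 and -0.67 ± 0.10), as was CHAF1B, a histone chaperone on chromosome 21 (-1.01 ± 0.11). E2F1 itself was not called in JQ1 (-0.14 ± 0.09, adjusted p = 0.222) and was lower in DMSO (-0.48).

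CCND1, the D-type cyclin that starts the passage through G1, changed order between conditions. It had 1098 and 1069 CPM in resistant cells and 635 and 648 CPM in parental cells in JQ1 (log2 fold change 0.76 ± 0.08, adjusted p = 3.20e-08). In DMSO it averaged 537 CPM in resistant cells and 674 CPM in parental cells, and the line difference changed by 1.08 ± 0.12. With mitochondrial mRNA scaling the JQ1 value was 0.23 and the change 0.80, neither called, where the median of all genes in JQ1 was -0.50. CDK6, a kinase partner of the D-type cyclins, was lower (-0.48 ± 0.12), with no call on log2 TPM or log2 FPKM (-0.44 to -0.65). CDKN1A, the inhibitor p21, was higher (0.30 ± 0.09), a call lost without parental JQ1 replicate 1 (0.28) or resistant JQ1 replicate 2 (0.25) and turned to -0.22 by mitochondrial mRNA scaling.

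Stress and death genes were divided. Of 27 p53 targets tested, 9 were higher and 5 lower in resistant cells, with a median of 0.19. With mitochondrial mRNA scaling 1 was higher and 9 were lower, at a median of -0.34. GDF15, a secreted stress cytokine, had 16.5 and 18.4 CPM in resistant cells and 5.76 and 4.63 CPM in parental cells (1.74 ± 0.13). GADD45A, a growth arrest gene, was higher in JQ1 (0.80 ± 0.08) and lower in DMSO (-0.49), and SESN2, a nutrient sensor, was higher in JQ1 (0.79 ± 0.10). Both calls ended with mitochondrial mRNA scaling (0.27 and 0.29). Of 19 BCL2 family genes, 7 were higher and 3 lower. PMAIP1, a pro-death member also called NOXA, was higher by 1.15 ± 0.11, and BCL2L1, which encodes the survival protein BCL-XL, by 0.60 ± 0.10. The BCL2L1 value rests on 0.736 of the deposited gene level, was not called on log2 TPM or log2 FPKM (0.20 to 0.23) and was 0.07 with mitochondrial mRNA scaling.

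**Figure D3:**
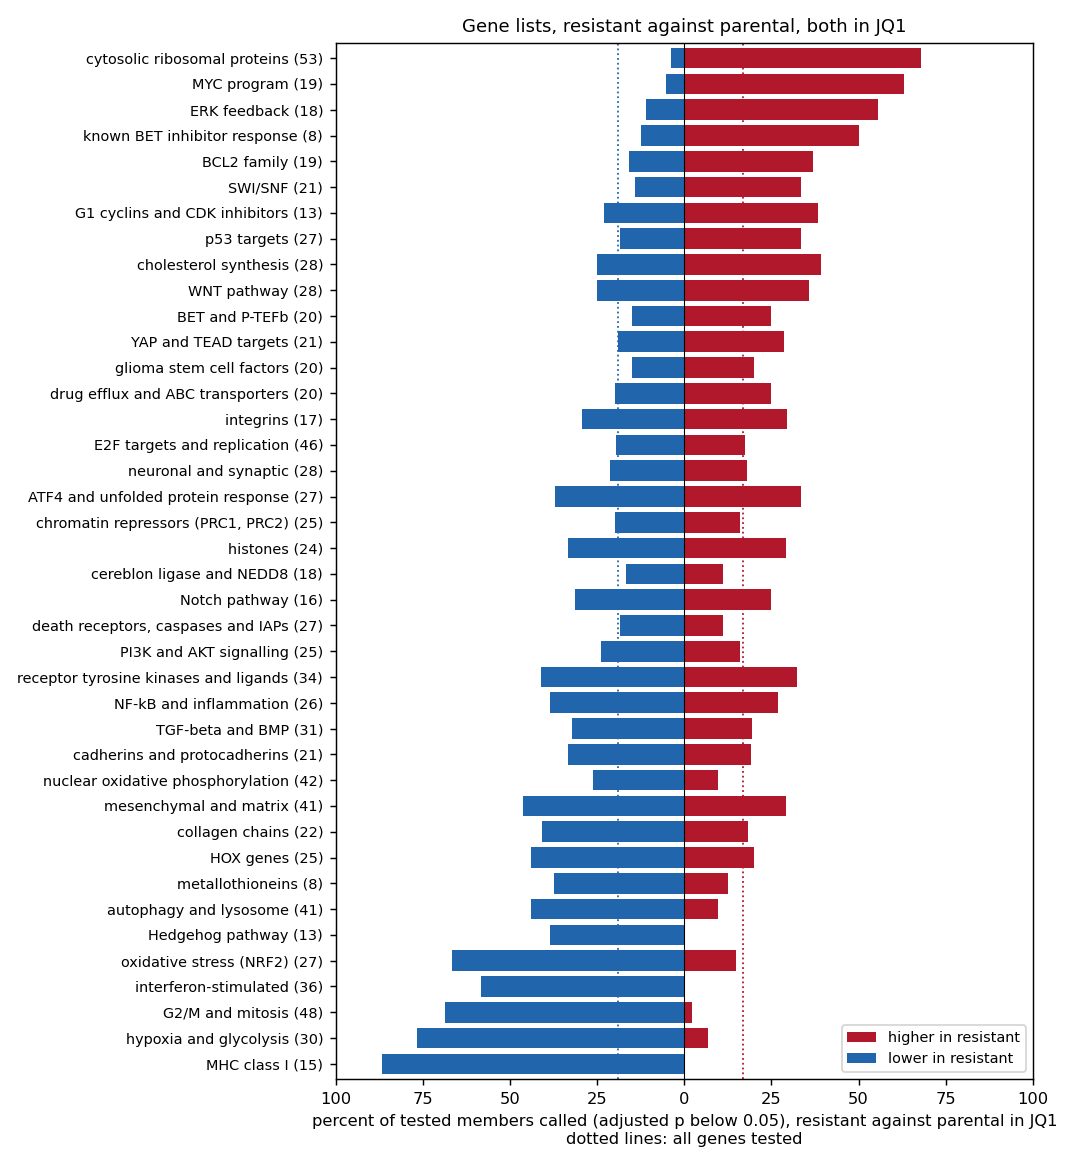
Percent of the tested members of 40 gene lists called higher (red, right) or lower (blue, left) in resistant than in parental cells, both in JQ1, with the number tested in brackets and the shares of all genes, 16.8% higher and 19% lower, as dotted lines. Ribosomal protein, MYC program and ERK feedback genes reach farthest to the higher side, and MHC class I, hypoxia and G2/M genes to the lower side.

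Of 27 genes of the oxidative stress response driven by NRF2, 18 were lower and 4 higher in resistant cells, with a median of -0.52. NQO1, a quinone reductase, had 159 and 168 CPM in resistant cells and 415 and 465 CPM in parental cells in JQ1 (-1.43 ± 0.09, adjusted p = 2.71e-13). In DMSO its means were 94.7 CPM in resistant cells and 122 CPM in parental cells, so both lines had more of it in JQ1 and the gap was wider by 1.06 ± 0.12. TXNRD1, thioredoxin reductase, had 363 and 365 CPM in resistant cells and 854 and 980 CPM in parental cells (-1.33 ± 0.09), with 0.887 of the deposited gene value rebuilt. SLC7A11, the cystine importer encoded on chromosome 4, had 1.78 and 1.97 CPM in resistant cells and 8.63 and 10.4 CPM in parental cells (-2.34 ± 0.17). The higher members were HMOX1, heme oxygenase (1.09), ABCC3, an export pump (0.82), AKR1C2, an aldo-keto reductase with close relatives (0.64), and KEAP1, the inhibitor of NRF2 (0.37), of which only HMOX1 was called with mitochondrial mRNA scaling (0.58), while ABCC3 was at 0.32, AKR1C2 at 0.16 and KEAP1 at -0.16. In DMSO 10 were lower and 5 higher with a median of -0.13, and the line difference was called more negative in JQ1 for 11 members and more positive for 1. Without the 6 chromosomes, 15 of 22 were lower and 2 higher.

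Of 30 genes of hypoxia and glycolysis, 23 were lower and 2 higher in resistant cells, with a median of -0.61. BNIP3, a mitophagy receptor, had 54.7 and 56.2 CPM in resistant cells and 172 and 187 CPM in parental cells (-1.69 ± 0.12). PDK1, a kinase that inhibits pyruvate dehydrogenase, and PFKFB3, which activates glycolysis, were lower by -1.34 ± 0.12 and -1.0 ± 0.09. GPI, an enzyme of glycolysis encoded on chromosome 19, and EPAS1, the hypoxia factor HIF-2 alpha, were the higher ones (0.45 and 0.25), neither called with mitochondrial mRNA scaling (-0.07 and -0.27). In DMSO 19 were lower and 3 higher with a median of -0.42, and in dBET6 10 were lower and 12 higher. Autophagy and lysosome genes also lay low, with 18 of 41 lower and 4 higher and a median of -0.20. CTSK, a lysosomal protease, had 204 and 216 CPM in resistant cells and 490 and 524 CPM in parental cells (-1.27 ± 0.09).

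Antigen presentation genes were lower in resistant cells. MHC class I molecules show peptides from inside the cell to T cells. Of 15 tested genes of class I chains, peptide transport and the immunoproteasome, 13 were lower and none higher, with a median of -0.72. HLA-B had 16.9 and 18.7 CPM in resistant cells and 66.5 and 67.8 CPM in parental cells (-1.91 ± 0.09). HLA-C was lower by -1.19 ± 0.10. The class I genes are highly polymorphic and related to one another, so reads may be divided between them. In DMSO 14 of the 15 were lower, at a median of -0.70, and in dBET6 11 at a median of -0.55. HLA-DRA, a class II chain that is not in the list, was lower as well, at 6.25 and 7.70 CPM in resistant cells and 22.3 and 23.6 CPM in parental cells (-1.72 ± 0.12). It lies on chromosome 6 in a stretch of 25 neighbouring tested genes from AGPAT1 to HLA-DPB1. In that stretch 16 genes were lower and none higher, at a median of -0.99 in JQ1 and -1.08 in DMSO. The part of this stretch in the list count was not tested.

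Interferon-stimulated genes, which share part of their control with MHC class I, had 21 of 36 lower and none higher, at a median of -0.48. IFITM3, an antiviral membrane protein, had 2.88 and 3.71 CPM in resistant cells and 23.8 and 23.5 CPM in parental cells (-2.84 ± 0.13). HERC5, an ISG15 ligase on chromosome 4, was lower by -1.13 ± 0.10. In DMSO 16 were lower and 3 higher at a median of -0.30. Inflammatory genes were mixed, with 7 of 26 higher and 10 lower. IL8, a chemokine gene on chromosome 4, had 0.781 and 0.552 CPM in resistant cells and 3.79 and 3.24 CPM in parental cells (-2.40 ± 0.22). SOD2, mitochondrial superoxide dismutase, was lower by -0.84 ± 0.08.

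Matrix and mesenchymal genes moved in both directions. Of 41 tested, 12 were higher, with CHI3L1 and LTBP1 first, and 19 lower, with a median of -0.37. MMP3, a matrix metalloprotease, had 7.81 and 8.86 CPM in resistant cells and 80.9 and 90.3 CPM in parental cells (-3.36 ± 0.11), and LOX, which crosslinks collagen, had 9.50 and 8.96 CPM in resistant cells, against 44.3 and 47.7 CPM in parental cells (-2.32 ± 0.09). Of 22 collagen chains, 9 were lower and 4 higher. COL1A2 had 89.2 and 88.0 CPM in resistant cells and 169 and 157 CPM in parental cells in JQ1 (-0.88 ± 0.09), but was not called in DMSO (-0.11, adjusted p = 0.308). COL12A1 was lower by -2.81 ± 0.15. The summed level of 6 fibroblast and pericyte markers was 6.53 to 8.10 TPM in resistant cells and 26.7 to 31.5 TPM in parental cells in JQ1. Most of that sum was COL1A1, itself a collagen chain, at 4.84 and 3.36 TPM in resistant and 26.0 and 22.5 TPM in parental cells. Of these markers, COL3A1 and LUM were below 0.5 TPM in every JQ1 library, and the part of such cells in the result was not tested. Of 17 integrins, 5 were higher and 5 lower, with ITGA2, a collagen receptor chain, at 67.7 and 58.5 CPM in resistant cells and 18.3 and 19.9 CPM in parental cells (1.73 ± 0.10). ITGB3, a chain of the vitronectin receptor, was higher by 1.21 ± 0.09.

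Targets of BMP signalling were among the lower genes of the TGF-beta and BMP list, of which 6 of 31 were higher and 10 lower. ID3, an inhibitor of basic helix-loop-helix factors, had 23.8 and 25.9 CPM in resistant cells and 159.5 and 155 CPM in parental cells in JQ1 (-2.66 ± 0.10). Its means in DMSO were 22.3 CPM in resistant cells and 65.4 CPM in parental cells. ID2 had 26.1 and 27.3 CPM in resistant cells and 81.2 and 88.5 CPM in parental cells (-1.67 ± 0.09). The line differences of ID3 and ID2 were more negative in JQ1 than in DMSO, by -1.11 and -1.0 on the log2 scale. Cholesterol and lipid synthesis genes leaned the other way, with 11 of 28 higher and 7 lower and a median of 0.17. With mitochondrial mRNA scaling 2 were higher and 12 lower, at a median of -0.34. HMGCS1, an early enzyme of the pathway encoded on the short arm of chromosome 5, was higher by 1.24 ± 0.11.

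The differences between the lines were not spread evenly over the chromosomes. On chromosome 4, 395 of 665 tested genes were lower in resistant cells (59.4%) and 15 higher (2.26%), with a median log2 fold change of -0.65. Both arms took part, with 121 of 194 genes lower on the short arm and 274 of 471 on the long arm. On chromosome 21, 112 of 209 genes were lower and 2 higher, at a median of -0.69. Chromosome 22 had 139 of 464 genes lower and 39 higher, at a median of -0.23. The medians in DMSO were -0.68, -0.63 and -0.15 on chromosomes 4, 21 and 22, and those in dBET6 were -0.76, -0.66 and -0.24.

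Higher genes were concentrated on the short arm of chromosome 5, where 113 of 181 were higher (62.4%) and 6 lower, at a median of 0.97 (0.44 with mitochondrial mRNA scaling). The long arm of the same chromosome had 121 of 708 genes higher and 138 lower, at a median of 0.04 (-0.47 with mitochondrial mRNA scaling). Chromosome 13 had 112 of 300 genes higher and 27 lower, and chromosome 19 had 463 of 1330 higher and 110 lower. Their medians were 0.26 and 0.29, which turned to -0.26 and -0.22 with mitochondrial mRNA scaling, against -0.50 for all genes. In DMSO the medians were 0.91 on the short arm of chromosome 5, 0.26 on chromosome 13 and 0.34 on chromosome 19, and in dBET6 they were 0.77, 0.14 and 0.22. DNA copy number was not analysed here.

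**Figure D4:**
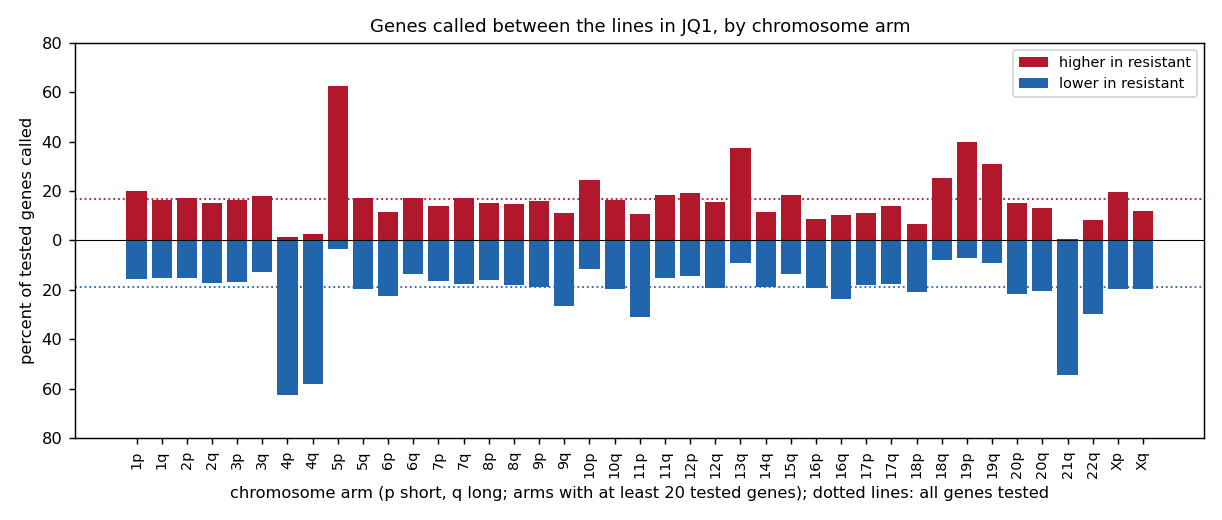
Percent of tested genes called higher (red, above 0) or lower (blue, below 0) in resistant than in parental cells, both in JQ1, for each chromosome arm with at least 20 tested genes, with the shares of all genes as dotted lines. The short arm of chromosome 5 reaches 62.4% higher, and both arms of chromosome 4 and the long arm of chromosome 21 stand out on the lower side.

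Along chromosome 5 the excess covered the short arm. Running medians over 25 neighbouring tested genes reached 1.48 in the stretch between C5orf42 and OXCT1-AS1, where 19 genes were higher and none lower and which holds GDNF. They stayed near or above 1 in the stretches from CEP72 to CTD-2044J15.1, from FAM173B to MYO10 and from DROSHA to BRIX1. TERT, the catalytic subunit of telomerase, lies in the first of these and had 12.3 and 10.4 CPM in resistant cells, against 0.848 and 1.03 CPM in parental cells (3.60 ± 0.25). It stood at 10.9 CPM in resistant cells and 0.813 CPM in parental cells in DMSO. MYO10, an unconventional myosin of filopodia, had 260 and 266 CPM in resistant cells and 80.8 and 86.2 CPM in parental cells (1.66 ± 0.09). ANKH, a membrane protein of pyrophosphate transport, and TARS, threonyl-tRNA synthetase, were higher by 1.53 ± 0.09 and 1.58 ± 0.09. A separate stretch of the long arm, from HARS to PCDHGB1, reached 1.17 and holds the protocadherin beta genes, which are close paralogs.

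On chromosome 4 the lowest running median, -1.01, lay at the start of the short arm between ABCA11P and TMEM129, with 19 genes lower and none higher. FGFRL1, a decoy receptor of fibroblast growth factors, had 2.99 and 2.13 CPM there in resistant cells and 34.1 and 34.0 CPM in parental cells (-3.73 ± 0.14). DGKQ, a diacylglycerol kinase, had 15.6 and 15.8 CPM in resistant cells and 73.8 and 71.3 CPM in parental cells (-2.21 ± 0.10). A stretch of the long arm from FABP2 to FAT4 had a median of -0.91 and holds FAT4, an atypical cadherin, at 0.404 and 0.210 CPM in resistant cells and 11.5 and 12.9 CPM in parental cells. On chromosome 21 the lowest stretch (-0.91) holds RCAN1, an inhibitor of calcineurin (-2.05 ± 0.13), and CBR1, a carbonyl reductase (-1.51 ± 0.09). The lowest running median of the genome, -1.90, lay on chromosome 19 between HSD17B14 and KCNA7 and includes the chorionic gonadotropin beta genes, near-identical copies between which reads are divided.

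**Figure D5:**
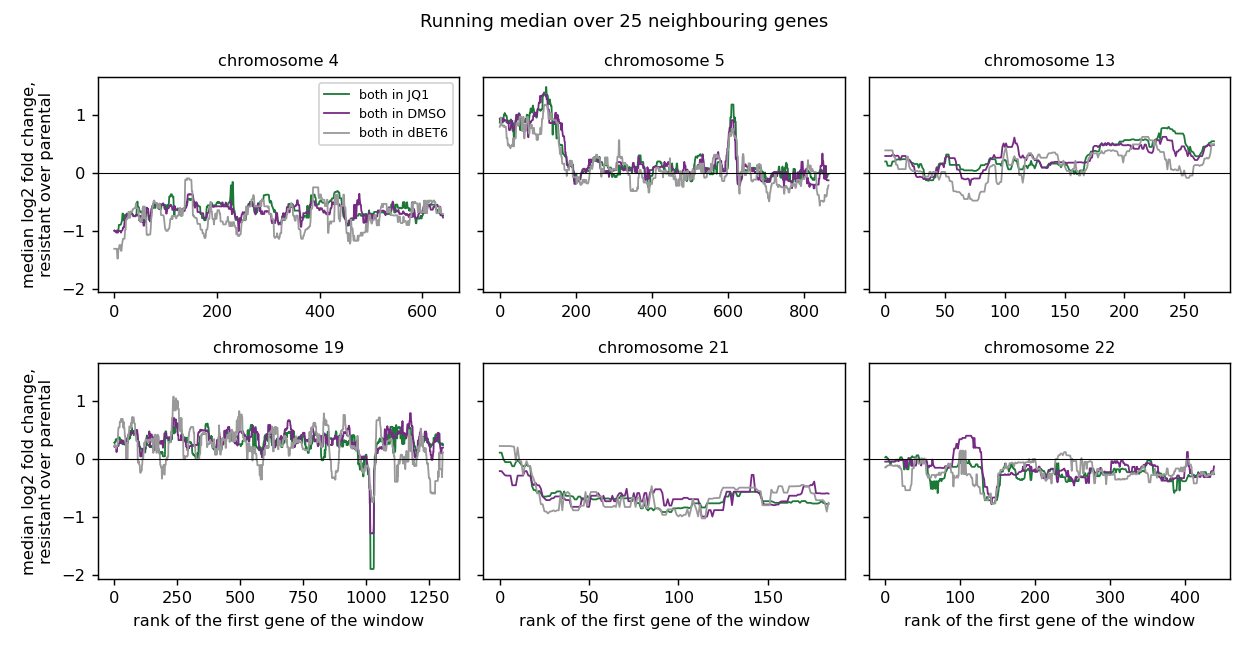
Running median of the log2 fold change of resistant over parental cells over 25 neighbouring tested genes on 6 chromosomes, plotted against the rank of the first gene of each window, for JQ1 (green), DMSO (purple) and dBET6 (grey). Chromosomes 4 and 21 lie below 0 over nearly their whole length in the 3 conditions, and chromosome 5 lies near 1 over its short arm and near 0 beyond it.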

How the data were processed

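PolyA RNA was sequenced from 12 libraries of U87 cells, 2 per combination of line and treatment. The deposited estimated counts per transcript and the deposited TPM values come from kallisto (submitters' processing notes; the column names in the file headers are kallisto's), and the counts are not normalized. The deposited FPKM values stand in 1 gene table, and the submitters' processing notes name kallisto, DESeq2 and hg19 without roles. Tool versions were not given in the sources used here.

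Transcripts were assigned to genes through GENCODE release 29 (GRCh38, another build than the notes name), which paired 92.6% of transcripts and 95.0% to 96.3% of the counts per library. For 82.0% of genes above 1 FPKM in every library the rebuilt TPM lay within 1% of the deposited FPKM, after a factor per library, and for 5.85% it lay below 0.8 of it. Chromosome arms and neighbours come from that annotation, and no gene coordinates are given because the builds differ.

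Gene sums were rounded, filtered with edgeR's filterByExpr, scaled by TMM (factors 0.61 to 1.3) and tested with edgeR 4.0.16 (robust quasi-likelihood, R 4.3.3), with the 12 libraries fitted together, 1 mean for each group and 6 degrees of freedom left over. The biological coefficient of variation was 7.88%. Adjusted p is Benjamini-Hochberg over all 19093 genes, with a threshold of 0.05. The value after ± is the size of the log2 fold change divided by the square root of its quasi-likelihood F statistic. It is not a separately fitted error, and it can be too small for genes near silence in 1 line. The fit was tested on simulated data. Alternatives were RLE size factors, total counts, scaling to 13 mitochondrial mRNAs, DESeq2 1.42.0, a fold threshold of 1.5, other filters, a replicate block, a fit of only those libraries that are compared, limma-trend 3.58.1 on log2 TPM (pseudocounts 1 and 0.1) and log2 FPKM (pseudocount 1), and leaving out each JQ1 or DMSO library. The 95% intervals of ratios, and the floor (3 counts in a library), hold counting error alone.

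The comparison, the 40 gene lists (1028 tested members of 1152 symbols), the 8 marker lists and the naming rule were chosen with earlier results of these data known. Lists are described by counts and medians, with no test of the list. Named were the 10 largest and 10 smallest fold changes in JQ1 and the 6 largest and 6 smallest changes between conditions among called protein-coding genes that average 10 CPM or more, up to 3 members per list with the smallest p, genes near silence in 1 line, up to 5 per stretch of neighbours, and a fixed set (MYC, HEXIM1, SERPINI1, BRD2, BRD3, CRBN, CDKN1A, BCL2L1, CDK6, CCND1, E2F1). Only a part of these is printed, and some genes are not reported here. Transcripts with no paired gene were not used.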

Additional observations from a re-analysis of the deposited data

Results flagged for a closer look

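The genes here had a line difference, resistant over parental, that changed between DMSO and JQ1 by the interaction test of edgeR's fit across all genes (adjusted p below 0.05, n = 2 libraries per group). Each value is the log2 line difference in JQ1 minus that in DMSO, and no cause was tested. More positive in JQ1 were the secreted factors LIF (1.86), IGFBP1 (1.34), LTBP1 (1.34), IL8 (1.19), HGF (0.86), GDF15 (0.77) and CYR61 (0.60), the protease inhibitors TIMP3 (1.70) and SERPINB2 (1.55), and the methyltransferase METTL7B (1.61). TIMP3 was near the floor in resistant cells, at means of 0.196 CPM in DMSO and 0.426 CPM in JQ1. Its change was not called with mitochondrial mRNA scaling (1.42), on log2(TPM + 0.1) (1.17) or on log2(FPKM + 1) (0.60). Genes of growth signalling followed with EPHA2 (1.49), EPHB2 (1.18), SPRY2 (1.15), EGR1 (1.00), DUSP6 (0.66), FOSL1 (1.21), MAFF (1.49), CCND1 (1.08) and MYC (0.58). Surface proteins and pumps were NT5E (0.92), ABCC3 (0.55) and ITGB3 (0.52). Stress and survival genes were GADD45A (1.28), SESN2 (0.71) and BCL2L1 (0.62), and biosynthesis genes were ODC1 (0.72), RRP12 (0.62), TARS (0.48) and FBL (0.40), with the histone variant H2AFZ at 0.43.

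More negative in JQ1 were TNFAIP2 (-2.76), PSG4 (-2.38, of a family of near-identical genes), PTGES (-1.59), MCF2L (-1.59), RXRA (-1.44) and SLC12A8 (-1.43). The BMP targets ID3 (-1.11) and ID2 (-1.0) and the oxidative stress genes NQO1 (-1.06) and TXNRD1 (-0.75) lay on the same side. Matrix and Notch genes there were NOTCH3 (-0.90), COL1A2 (-0.76), COL5A1 (-0.66) and CTSK (-0.68). The remaining ones were BNIP3 (-0.81), DGKQ (-0.61), GAA (-0.60), KIF20A (-0.48), HEXIM1 (-0.47) and PFKFB3 (-0.39), which passed with the largest adjusted p of these genes, 0.0490. Of the 50 genes, 30 lost the call with mitochondrial mRNA scaling, 25 in at least 1 of the fits on log2 TPM or log2 FPKM, 15 without at least 1 of the 8 libraries, and none with DESeq2.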

How the results depend on the processing

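Scaling to mitochondrial mRNAs gave 546 higher and 7609 lower genes in JQ1, 981 higher genes in DMSO (4073 lower), 58 and 277 for the change between conditions, and 352 shared higher genes. It also turned MYC (-0.29), MAFF (-0.16) and CDKN1A (-0.22) in JQ1. A mean of at least 10 CPM, which tests fewer genes, gave 2293 lower genes in JQ1, 2225 in DMSO and 1535 shared. A fold threshold of 1.5, stricter by construction, left 677 higher and 1187 lower genes in JQ1, 758 and 1216 in DMSO, 60 and 44 for the change, and 383 and 777 shared. On log2(TPM + 1) the numbers were 1725 higher in JQ1, 2065 and 2482 in DMSO, 200 and 188 for the change, and 1004 and 1607 shared. On log2(TPM + 0.1) they were 1461 and 2374 in JQ1, 1635 and 2078 in DMSO, 127 and 133 for the change, and 804 and 1384 shared. On log2(FPKM + 1) they were 1688 and 2209 in JQ1, 1521 and 2525 in DMSO, 196 and 119 for the change, and 863 and 1454 shared. The change of COL5A1 was positive on log2(TPM + 1) and log2(FPKM + 1) (0.46 and 0.45), as was that of NOTCH3 (0.33 and 0.28), and why was not tested. Only the libraries compared gave 831 genes more negative in JQ1. The other count alternatives lay within 1.5 times the reported counts, DESeq2's 2300 higher and 3052 lower genes in JQ1 included. Leaving out 1 JQ1 or DMSO library gave 2174 to 3247 higher and 2600 to 3654 lower genes in JQ1, 2243 to 3321 and 2925 to 4134 in DMSO, 310 to 710 more positive and 235 to 557 more negative changes, and 1356 to 1647 shared higher and 1961 to 2372 shared lower genes. With 1 library left in a group, that library is assumed to vary like the others. Samples with the same replicate number did not deviate together in JQ1 (correlation -0.19) but did in DMSO (0.30), and the titles are the only source of the numbers. Between JQ1 and DMSO the replicate deviations correlated at -0.35 in parental cells and -0.03 in resistant cells. What the former means for the change between conditions was not tested. With a replicate block, 3136 genes were higher and 3546 lower in JQ1 (3215 and 3936 in DMSO, 642 and 503 for the change), PFKFB3 lost its change between conditions (-0.39) and ECT2 its call in JQ1. With the numbers of the parental JQ1 libraries exchanged, a choice made after seeing the data, 3140 were higher and 3564 lower. Precision is limited by 2 libraries per group, and for genes under 1 CPM by counting.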

Other observations

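Developmental pathways showed a mixed picture between the lines in JQ1. Of 28 WNT pathway genes, 10 were higher and 7 lower in resistant cells (2 and 11 with mitochondrial mRNA scaling). In DMSO 9 were higher and 8 lower, and the line difference was called more positive in JQ1 for 1 and more negative for 1. Among the higher ones in JQ1 were the receptors ROR1 (2.50) and FZD7 (1.59) and the transcription factor TCF7 (0.93; 0.42 and no call with that scaling). The lower WNT members are not named here. Of 13 Hedgehog genes, 5 were lower and none higher, 38.5% called, near the 35.9% of all genes and the 41.5% of protein-coding genes. The kinesin KIF7 (-2.17) was among them, as were the transcription factor GLI2 (-2.16) and the coreceptor GAS1 (-2.29), both below 2 CPM in every JQ1 library. Of 16 Notch genes, 4 were higher and 5 lower (none and 7 with mitochondrial mRNA scaling), with NOTCH3 at 1.02 and 0.631 CPM in resistant cells and 11.5 and 10.4 CPM in parental cells (-3.72 ± 0.18). Of 25 HOX genes, 11 were lower and 5 higher, with HOXD11 (-2.29) and HOXD8 (-0.79) lower, but leaving out resistant JQ1 replicate 2 left 5 lower and 2 higher. Without the other JQ1 libraries 6 to 7 HOX genes were lower and 2 to 4 higher. Filtering to a mean of at least 10 CPM left 1 higher and none lower, and DESeq2 called 4 of them lower and 2 higher.

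Of 20 glioma stem cell factors, 4 were higher and 3 lower, 35.0% called against 35.9% of all genes (1 and 8 with mitochondrial mRNA scaling), with NES, an intermediate filament of neural progenitors, higher by 0.45 and KLF4, a transcription factor, by 1.10, of which neither was called with that scaling (-0.06 and 0.60). Of 20 ABC transporters, 5 were higher and 4 lower (1 and 6 with mitochondrial mRNA scaling). The export pumps ABCC3 (24.1 and 23.7 CPM in resistant cells, 14.9 and 12 CPM in parental cells) and ABCC5 (66.8 and 61.3 CPM in resistant cells, 44.6 and 40.0 CPM in parental cells) were higher by 0.82 ± 0.11 and 0.60 ± 0.09, calls that ended with mitochondrial mRNA scaling. Among histone genes, H2AFZ, which encodes a histone variant on chromosome 4, had 151 and 167 CPM in resistant cells and 325 and 361 CPM in parental cells (-1.11 ± 0.09).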
